A study of Mus musculus with 12 samples.

Results

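The zinc finger genes numbered Zfp900 to Zfp999 were followed through 4 passages of a transplanted mouse melanoma. Members were all gene rows of the deposited expression table that carry a protein-coding symbol of that form in the GENCODE M21 annotation, which gave 62 of 34436 genes. The annotation has 63 such protein-coding genes; the remaining one, Zfp935, shares exons with Zfp934 and was not analysed here. The set was proposed with earlier results of these data in view, and Zfp985 had been singled out in the comparison of Balb/c-2 with F0. For Zfp985 and the genes around it on chromosome 4, the levels are therefore given as a description with no test.

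Polyadenylated RNA came from 12 tumour biopsies, 3 per passage. All descend from YUMM1.7, an established melanoma line of C57BL/6 mice that carries mutant Braf and lacks Cdkn2a. Per the labels, YUMM1.7 cells grown in syngeneic mice gave the F0 tumours, and dissociated tumour cells were then passed from host to host through F1, F2, the N2 series, the Balb/c series and finally CBA; RNA was sequenced at F0, at N2.1 of the N2 series, at Balb/c-2 and at CBA. The labels give no host strain beyond these names and no host age, and each passage's tumours are lettered A to C, so an SD or a p-value here reflects tumour-to-tumour spread within 1 series of passages, as far as the labels say. Values of a passage are listed in the order of these letters.

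Most genes of this kind encode proteins with a row of C2H2 zinc fingers, which read DNA, behind a KRAB domain, which binds the corepressor KAP1 (Trim28). KAP1 brings in the histone methyltransferase Setdb1 and other silencing factors, and many KRAB zinc finger proteins direct this machinery to transposable elements. In the mouse the genes lie in arrays that grew by tandem duplication, and individual arrays differ between strains.

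Recovered reads summed over all gene and repeat rows ran from 34721735 to 59404254 per tumour. Reads on repeat copies inside exons may be counted in both kinds of row. In units of normalised read count, 1 read corresponded to between 0.8266 and 1.2451. A first flow cell carried 7 tumours (all of F0 and N2.1, plus Balb/c-2 A) and a second carried the other 5, so CBA and F0 share no flow cell. The melanocyte genes Tyr, Dct and Mlana were at or near 0 in every tumour, with 7.44 for Dct in Balb/c-2 A as the highest value, while Mitf, the master regulator of melanocytes, ran from 318 to 1290. The biopsies also held host tissue: the summed level of 6 fibroblast genes ran from 179757 to 508249. Balb/c-2 A stood apart with a summed level of 30272 for 6 genes of B and plasma cells, against 131 to 990 in the other 11 tumours. In such bulk samples, fewer cells of a type and less RNA per cell cannot be told apart, and host and tumour reads were not separated.

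Of the 62 genes, 53 reached a normalised read count of at least 10 in at least 3 tumours and were tested. The 9 below this filter were Zfp957 and 8 genes of the chromosome 4 array (Zfp980, Zfp981, Zfp982, Zfp986, Zfp987, Zfp988, Zfp989 and Zfp990). Just outside it stood Zfp982, whose third-highest value was 8.12, and just inside it Zfp978, whose third-highest value was 14.9. Zfp985, Zfp977, Zfp936 and Zfp978, 4 of the 53, passed only through the Balb/c-2 and CBA tumours, so they had to differ between passages to be tested at all. The 53 genes were of modest abundance: the median of their means was 152.8, against 679 for all 17491 genes tested, and 47.1% of the tested genes had a mean above that of the highest member.

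By position, 43 of the 62 genes fell into 5 clusters, defined as at least 3 members with gaps of at most 1000000 bases between starts, and 19 lay in none. The clusters held 10 genes on chromosome 2, 16 on chromosome 4, 4 on chromosome 7, 3 on chromosome 8 and 10 on chromosome 17. In 11 genes an exon overlapped another annotated gene, and the strand setting of the counting is not given in the sources used here, so reads of such pairs could not be told apart. Reads shared by near-identical neighbours of an array may likewise have been split between them.

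**Figure D1:**
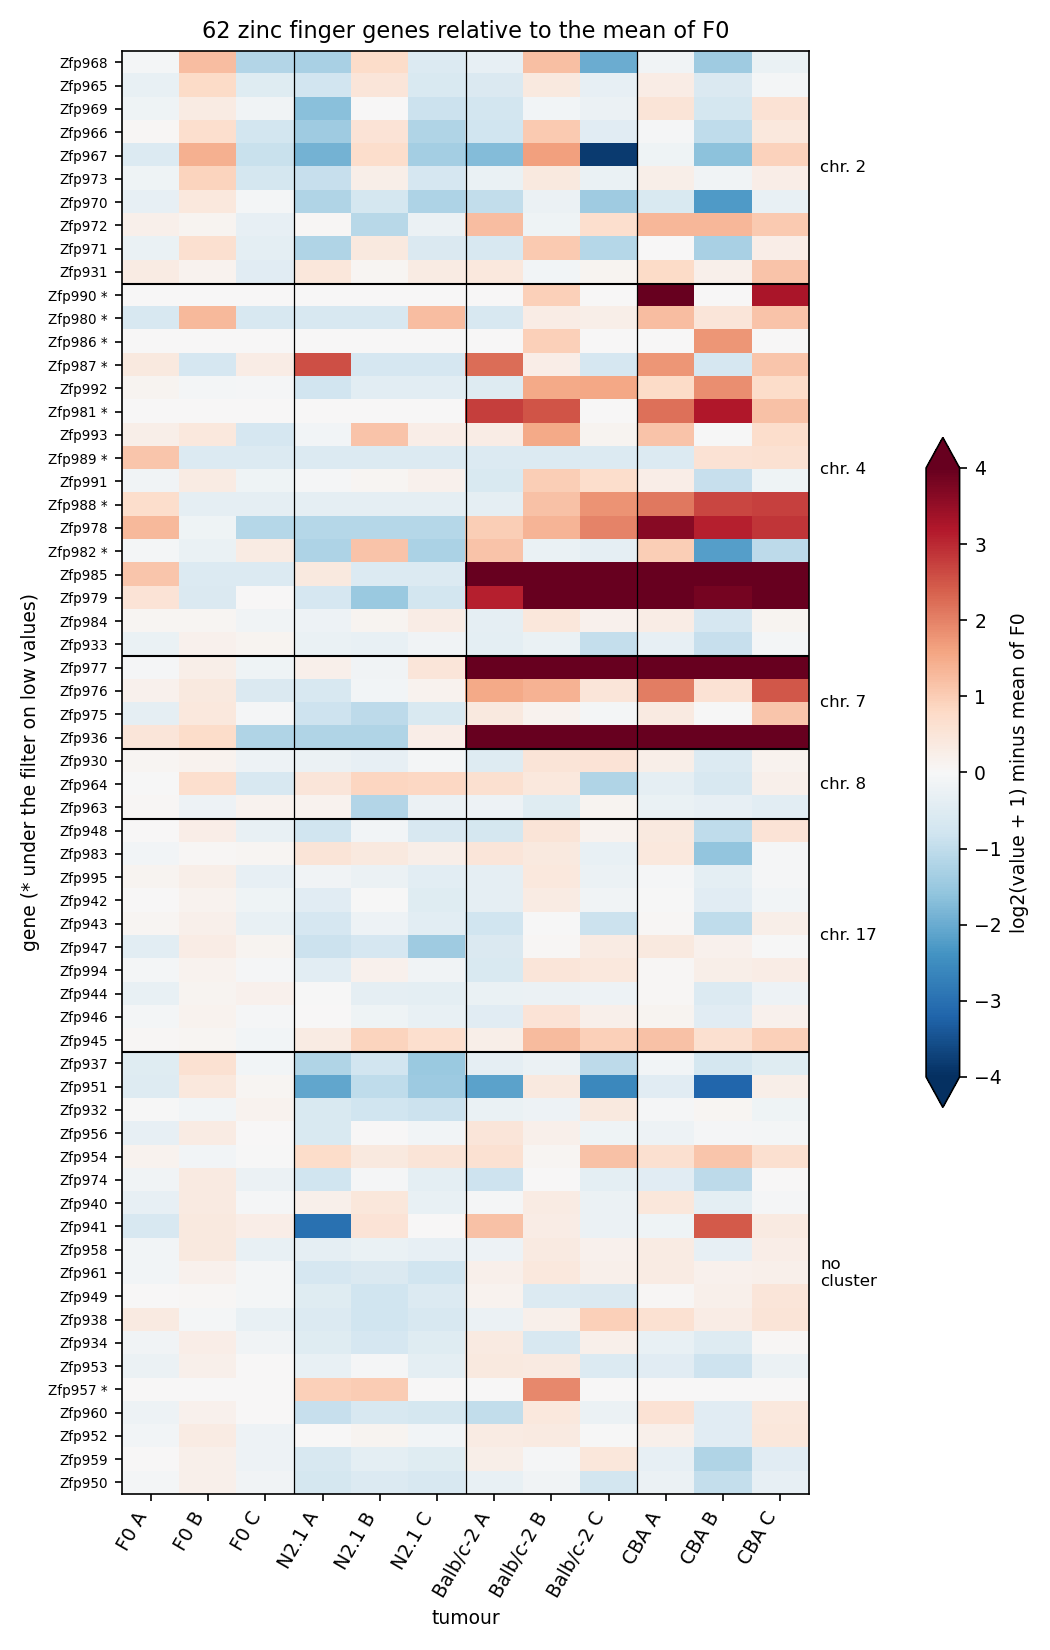
Each of the 62 genes (rows, grouped by cluster and ordered by position) in each of the 12 tumours (columns), as log2(normalised read count + 1) minus the mean of the 3 F0 tumours, with the colour scale capped at its ends. Zfp985, Zfp979, Zfp977 and Zfp936 are dark in all 6 Balb/c-2 and CBA tumours, while most other rows stay pale.

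The chromosome 4 array spans chr4:145510759-147848366 (mm10), 2338 kb with 53 other gene rows between its members, and its genes differed in kind: 8 were under the filter, Zfp978 was just above it, 5 were expressed in every tumour, and the pair Zfp985 and Zfp979 was high in the later passages and at or near 0 or low in the earlier ones. Zfp985 (ENSMUSG00000065999) lies at chr4:147553277-147585198 on the plus strand and Zfp979 (ENSMUSG00000066000) at chr4:147611937-147642513 on the minus strand, 26.7 kb apart and pointing toward each other. Their next neighbours among the members are Zfp982, 39.8 kb before Zfp985, and Zfp984, 111.5 kb after Zfp979.

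Zfp985 was listed at 2.22, 0 and 0 normalised reads in the F0 tumours, and at 0.946, 0 and 0 in those of N2.1. It had 154, 291 and 256 in Balb/c-2, and 476, 224 and 428 in CBA. All 6 Balb/c-2 and CBA tumours thus lay far above all 6 F0 and N2.1 tumours, with no overlap. In reads summed over a passage, 2 were counted in F0, 1 in N2.1, 797 in Balb/c-2 and 1061 in CBA. Corrected for depth, the ratio of Balb/c-2 to F0 was 345.3 (exact 95% counting interval 95.26 to 2856), that of CBA to F0 was 575.2 (158.8 to 4755) and that of Balb/c-2 to N2.1 was 727.3 (130.2 to 28760), intervals that cover counting error alone. On the log2(value + 1) scale the difference was 7.26 for Balb/c-2 minus F0, 7.92 for CBA minus F0 and 7.50 for Balb/c-2 minus N2.1.

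Zfp979, the next gene along, was expressed at a low level in the early passages, with 36.6, 16.2 and 25.1 in F0 and 15.1, 8.15 and 14.5 in N2.1. It had 218, 679 and 448 in Balb/c-2 and 798, 362 and 657 in CBA. Again no Balb/c-2 or CBA tumour overlapped with F0 or N2.1, but here the early passages were above 0 in every tumour. The log2 difference was 3.98 for Balb/c-2 minus F0, 4.49 for CBA minus F0 and 4.95 for Balb/c-2 minus N2.1. Per kb of exon, Zfp979 averaged 109 in Balb/c-2 and 147 in CBA, and Zfp985 averaged 81.4 in Balb/c-2 and 131 in CBA, below Zfp984 of the same array at 214 in Balb/c-2 and 191 in CBA.

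The flow cell moved with part of these levels. Balb/c-2 A, the single tumour of the later passages on the first flow cell, was the lowest of the 6 later tumours for Zfp985 (154) and for Zfp979 (218), yet it stood far above all 6 F0 and N2.1 tumours of the same flow cell. For Zfp992 the split followed the flow cell itself: Balb/c-2 A had 147, inside the range of F0 and N2.1 (123 to 229), while the 5 tumours of the second flow cell had 349 to 757. Of the 53 tested genes, 4 were higher in all 5 tumours of the second flow cell than in all 7 of the first (Zfp992, Zfp978, Zfp985 and Zfp979, all in this array), and 0.863% of all genes tested were. With flow cell as a covariate, the log2 difference of Zfp985 was 6.71 in Balb/c-2 minus F0 and 7.10 in CBA minus F0. That of Zfp979 was smaller than without it, 3.09 in Balb/c-2 minus F0 and 3.15 in CBA minus F0. The covariate rests on Balb/c-2 A against Balb/c-2 B and C, since only Balb/c-2 was on both flow cells. Host markers also moved with these comparisons. The summed level of 6 endothelial genes was 2114 to 2919 in CBA, against 4186 to 6792 in F0. That of 6 fibroblast genes was 179757 to 227131 in Balb/c-2, against 343048 to 508249 in F0 and 319060 to 381330 in N2.1. The genes of a list did not all move together. Against F0, Col3a1 was lower in Balb/c-2 (84969, 58782 and 59775, against 197328, 222324 and 139803), while Dcn overlapped (7961, 7446 and 7597, against 5716, 1786 and 8072). The summed level of 6 macrophage genes was lower in Balb/c-2 (52171 to 63476) than in N2.1 (81233 to 88655). C1qa, the largest part of the N2.1 sums, had 37655, 17604 and 16671 in Balb/c-2, against 49644, 36129 and 49161 in N2.1. Mrc1 did not fall, with 7045, 10545 and 17496 in Balb/c-2, against 4860, 7372 and 6387 in N2.1. Of the 8 marker lists, 0 separated all 6 later from all 6 earlier tumours, and the part of host tissue in these differences was not tested.

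**Figure D2:**
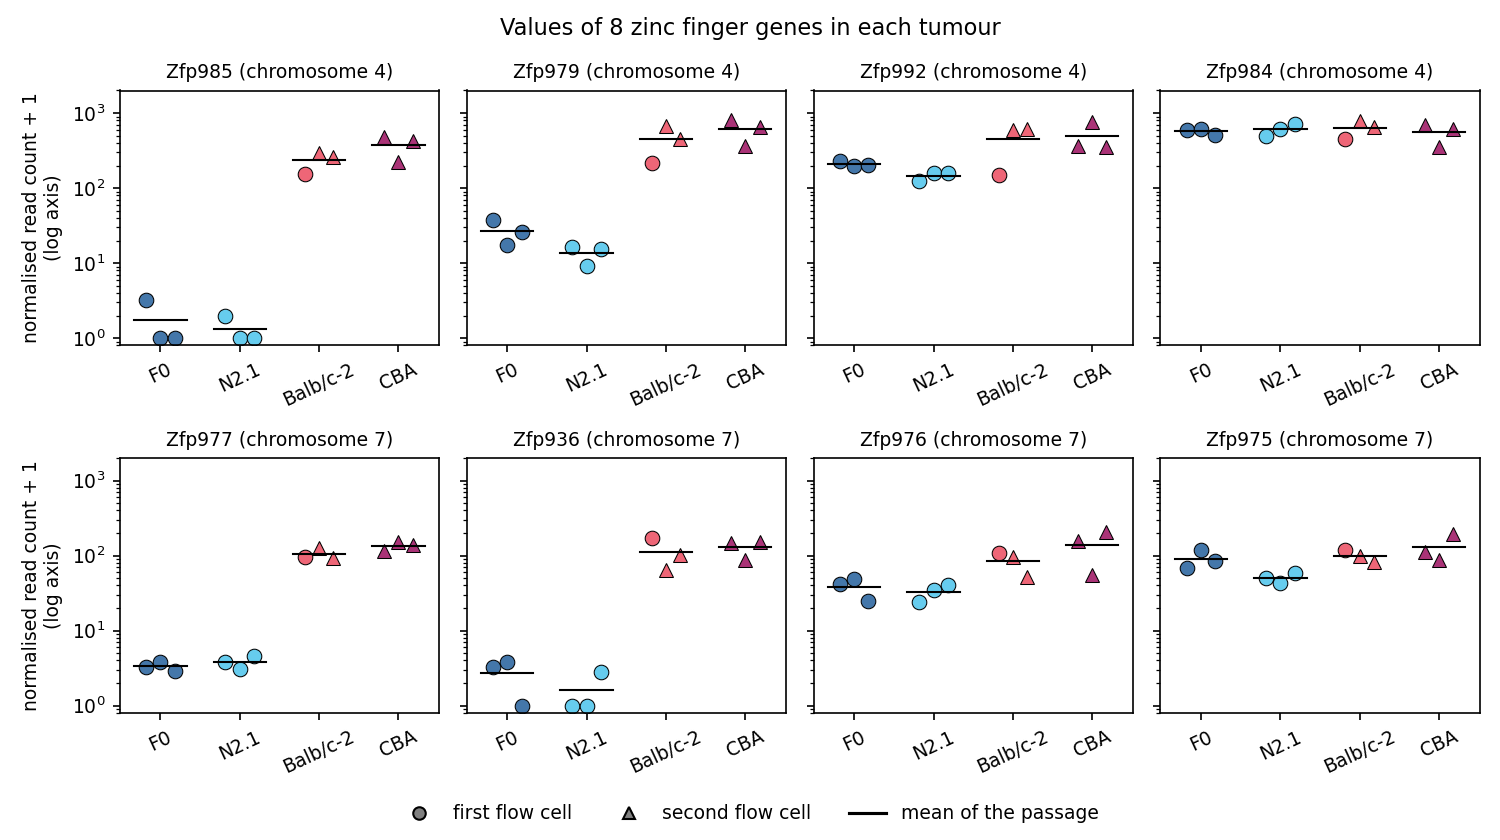
Normalised read count + 1 (log axis) of 8 genes in each tumour of the 4 passages, with circles for the first flow cell, triangles for the second and a line at the mean of a passage. Zfp985, Zfp979, Zfp977 and Zfp936 are separated between the 6 later and the 6 earlier tumours, and so is Zfp976 by a narrow gap. Zfp992 is separated by flow cell, and Zfp984 is level.

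The 5 genes of the array that were expressed in every tumour include Zfp992, described above. Zfp984, beside Zfp979, averaged 573 ± 51.8 in F0, 607 ± 105 in N2.1, 622 ± 168 in Balb/c-2 and 556 ± 178 in CBA (SD, n = 3 each), with all passages overlapping; its exons overlap the readthrough model Gm20707 on the same strand. Zfp991 averaged 453 ± 90.0 in F0, 472 ± 33.3 in N2.1, 640 ± 312 in Balb/c-2 and 391 ± 151 in CBA. Zfp933 at the far end had 190 to 414 over the 12 tumours and Zfp993 had 45.3 to 212, with overlap between passages in both.

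Among the weakly expressed genes of the array, Zfp978 was the only one to pass the filter. It had 26.2, 17.8 and 14.9 in CBA and 3.31, 4.67 and 7.72 in Balb/c-2, against 4.44, 0.954 and 0 in F0 and 0 in all 3 N2.1 tumours. Its log2 difference was 3.19 for CBA minus F0, on 56 reads in CBA and 5 in F0. Zfp988 had 4.51, 7.12 and 7.47 in CBA and at most 3.43 elsewhere. Zfp990 was listed at 30.7 in CBA A, 0 in CBA B and 8.72 in CBA C, at 0.933 in Balb/c-2 B and at 0 in the other 8 tumours. Zfp982, known in mouse embryonic stem cells as a gene of the pluripotent state, stayed between 0 and 9.17, Zfp987 and Zfp981 stayed between 0 and 8.52, and Zfp980, Zfp986 and Zfp989 did not exceed 2.86.

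**Figure D3:**
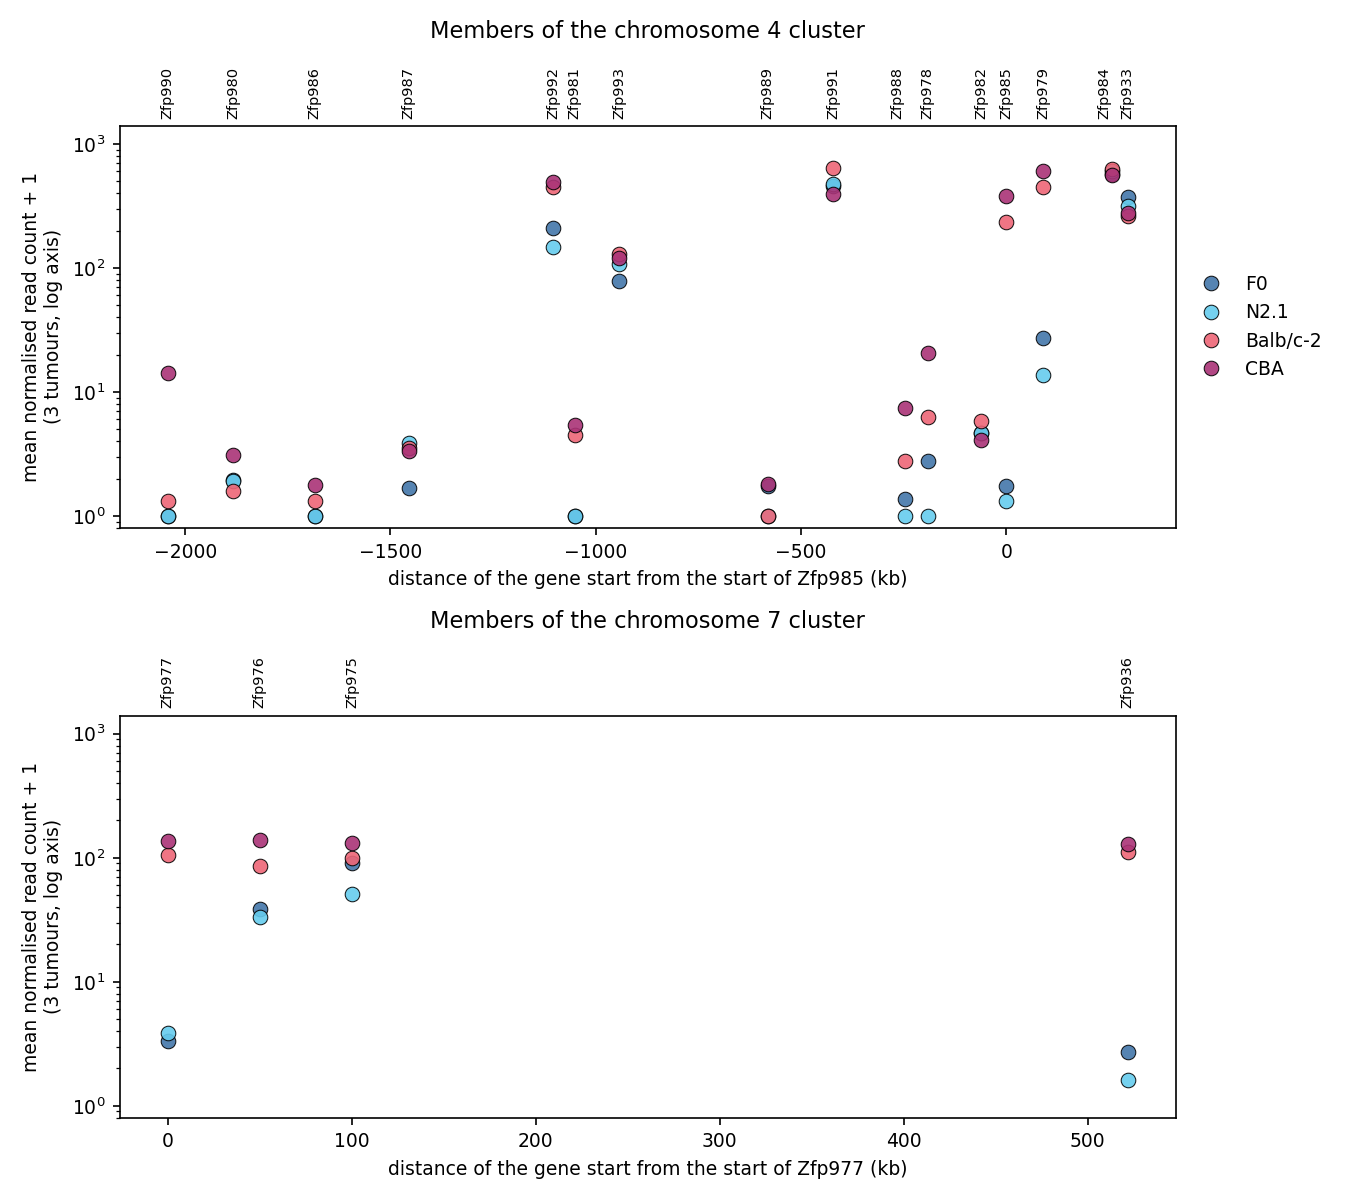
Mean normalised read count + 1 (3 tumours, log axis) of each member in the chromosome 4 and chromosome 7 clusters by the distance of its start from that of Zfp985 or Zfp977 in kb, with 1 colour per passage. Silent, level and separated genes stand side by side: Zfp982 is near 0 in all passages, Zfp985 and Zfp979 are split between earlier and later passages, and Zfp984 is level.

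The 250 bases before the annotated start show how alike the neighbours Zfp985, Zfp979 and Zfp984 are, although their levels differ in kind. The sequences are RefSeq's on GRCm38.p6 (the same coordinates as mm10), 5′ to 3′ on each gene's strand, with CG dinucleotides, the usual sites of DNA methylation in mammals, in capitals. The windows are chr4:147553027-147553276 (plus) for Zfp985, chr4:147642509-147642758 (minus) for Zfp979 and chr4:147809789-147810038 (minus) for Zfp984.
Zfp985: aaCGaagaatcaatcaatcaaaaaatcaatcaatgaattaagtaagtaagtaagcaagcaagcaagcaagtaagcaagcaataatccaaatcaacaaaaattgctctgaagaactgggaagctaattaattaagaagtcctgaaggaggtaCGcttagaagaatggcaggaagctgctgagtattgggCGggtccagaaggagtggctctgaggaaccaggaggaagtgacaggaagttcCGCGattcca
Zfp979: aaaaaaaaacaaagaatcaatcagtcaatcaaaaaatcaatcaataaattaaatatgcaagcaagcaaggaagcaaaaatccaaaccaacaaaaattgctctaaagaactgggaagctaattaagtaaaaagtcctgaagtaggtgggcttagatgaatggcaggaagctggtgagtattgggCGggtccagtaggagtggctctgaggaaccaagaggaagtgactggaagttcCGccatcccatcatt
Zfp984: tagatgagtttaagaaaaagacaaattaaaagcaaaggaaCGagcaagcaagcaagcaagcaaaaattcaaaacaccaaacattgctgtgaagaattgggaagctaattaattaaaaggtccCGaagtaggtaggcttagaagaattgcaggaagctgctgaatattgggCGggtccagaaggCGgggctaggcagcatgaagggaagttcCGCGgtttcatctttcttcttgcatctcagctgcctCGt
Zfp985 and Zfp979 were 81.2% identical over these windows, and Zfp984 was 68.1% identical to Zfp985. The most alike of the weakly expressed genes was Zfp980, 89.0% identical to Zfp979. CG occurred 5 times before Zfp985, 2 times before Zfp979 and 7 times before Zfp984. All 3 hold GGGCGG, at 65, 70 and 83 bases before the start in the order listed, directly overlapping a CCAAT on the opposite strand. The 12 promoters matched for the array cover 10 of its 16 genes, with Zfp982 entered more than once. On either strand, GGGCGG occurred in 66.7% of them. It occurred in 28.8% of the 59 promoters matched for all members and in 32.7% of all 32851 promoters of the same length. CCAAT occurred in 75.0% of those of the array, in 76.3% of those of all members and in 33.8% of all. Such matches are letters in a window and not sites of binding, and both level and separated genes hold them.

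The chromosome 7 cluster, chr7:42579783-43192109 (mm10), holds Zfp977, Zfp976 and Zfp975 in a row on the minus strand, 17.0 and 17.5 kb apart, and Zfp936 on the plus strand 421.5 kb further on. Its outer members, Zfp977 and Zfp936, rose in the later passages. Zfp977 (ENSMUSG00000092335, chr7:42579783-42592547) had 2.22, 2.86 and 1.93 in F0 and 2.84, 2.04 and 3.61 in N2.1. It had 95.1, 127 and 90.9 in Balb/c-2 and 115, 149 and 138 in CBA, with Balb/c-2 A of the first flow cell between Balb/c-2 B and C. The log2 change was 5.34 ± 0.41 for CBA minus F0 (SE, limma, adjusted p = 2.83e-05) and 4.79 ± 0.41 for Balb/c-2 minus N2.1 (adjusted p = 0.000115). With the filter used, Zfp977 had to differ between passages to be tested, so these p-values describe a gene selected for that difference.

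Zfp936 (ENSMUSG00000064194, chr7:43114229-43192109) was listed at 2.22, 2.86 and 0 in F0 and at 0, 0 and 1.81 in N2.1. It had 172, 62.5 and 99.5 in Balb/c-2 and 146, 86.6 and 152 in CBA. Balb/c-2 A, on the same flow cell as F0 and N2.1, was the highest of the 6 later tumours. That tumour also held the high level of B and plasma cell genes; in the 5 other later tumours, where those genes summed to 141 to 581, Zfp936 had 62.5 to 152. The log2 change was 5.76 ± 0.69 for CBA minus F0 (SE, limma, adjusted p = 0.000684) and 6.20 ± 0.69 for Balb/c-2 minus N2.1 (adjusted p = 0.000528). From 391 reads in Balb/c-2, 357 in CBA and 2 in N2.1, the depth-corrected ratio was 178.4 for Balb/c-2 to N2.1 (exact 95% counting interval 49.06 to 1478) and 203.8 for CBA to N2.1 (56.01 to 1690). Both Zfp977 and Zfp936 passed the filter only through the Balb/c-2 and CBA tumours, and both were also called without a filter on low values. With flow cell as a covariate, the log2 change in CBA minus F0 was 5.17 for Zfp977 (limma, adjusted p = 0.016) and 6.87 for Zfp936 (adjusted p = 0.0483). Only Balb/c-2 was on both flow cells, so that term rests on Balb/c-2 A against Balb/c-2 B and C.

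The inner members Zfp976 and Zfp975 were not called by the main limma fit, while DESeq2 called Zfp976 in CBA minus F0. Zfp976 had 154, 54.6 and 207 in CBA and 106, 96.1 and 51.5 in Balb/c-2, against 41.1, 47.7 and 24.1 in F0 and 22.7, 33.6 and 39.7 in N2.1. No later tumour overlapped with an earlier one, but the log2 change of 1.71 ± 0.53 for CBA minus F0 had an adjusted p of 0.097 (SE, limma). Zfp975 had 41.8 to 190 over the 12 tumours, with CBA and Balb/c-2 overlapping F0 but wholly above N2.1 (41.8 to 57.8).

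The chromosome 7 promoters form a family of their own, shown for the 2 genes that rose and for Zfp976 between them. The windows are chr7:42592546-42592795 (minus) for Zfp977, chr7:43177340-43177589 (plus) for Zfp936 and chr7:42642605-42642854 (minus) for Zfp976, printed as above with CG in capitals; the RefSeq start of Zfp936 lies 63361 bases inside the longer GENCODE gene.
Zfp977: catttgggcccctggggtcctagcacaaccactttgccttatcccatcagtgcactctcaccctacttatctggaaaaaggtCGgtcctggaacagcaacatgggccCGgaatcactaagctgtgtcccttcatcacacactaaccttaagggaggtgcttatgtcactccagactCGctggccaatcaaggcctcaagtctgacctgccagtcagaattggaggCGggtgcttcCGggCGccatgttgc
Zfp936: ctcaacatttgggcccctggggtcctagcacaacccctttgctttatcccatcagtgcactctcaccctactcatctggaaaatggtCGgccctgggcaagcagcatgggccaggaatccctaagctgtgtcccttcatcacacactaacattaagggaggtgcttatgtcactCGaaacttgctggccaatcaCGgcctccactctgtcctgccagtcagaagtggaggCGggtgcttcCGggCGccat
Zfp976: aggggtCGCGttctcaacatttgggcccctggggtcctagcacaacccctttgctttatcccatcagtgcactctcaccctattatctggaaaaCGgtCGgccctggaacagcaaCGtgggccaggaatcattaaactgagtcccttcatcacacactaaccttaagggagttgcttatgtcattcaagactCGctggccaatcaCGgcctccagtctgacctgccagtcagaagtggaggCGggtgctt
Zfp977 was 88.2% identical to Zfp936, which rose with it from the other end of the cluster, and 81.6% identical to its neighbour Zfp976. Against Zfp985 and Zfp979 the identity of Zfp977 and Zfp936 was 45.3 to 48.8%, so the 2 promoter families are not alike over this length. CG occurred 6 times before Zfp977, 6 times before Zfp936 and 8 times before Zfp976, near the median of 6 for all promoters. CCAAT was present in all 4 promoters of the cluster, where 76.3% of the promoters of all members held it, and GGGCGG in none of the 4.

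The gene bodies hold single copies of repeats with rows of their own in the table. Over the 30 copies inside Zfp985, 335 reads were counted in Balb/c-2 and 400 in CBA, against 6 in F0 and 6 in N2.1. Within Zfp979, 20 copies had 347 reads in Balb/c-2 and 399 in CBA, against 15 in F0 and 7 in N2.1, and within Zfp977, 19 copies had 192 in Balb/c-2 and 195 in CBA, against 5 in F0 and 6 in N2.1. Most of these reads lay on copies that overlap an exon (84.4% in Zfp985, 81.1% in Zfp979 and 79.6% in Zfp977), chiefly MMSAT4 and MurSatRep1 copies toward the 3′ end of the gene, so they repeat the gene's own signal and are no second measurement. In Zfp936 the share was lower, 51.3%, and its 79 copies summed to normalised values of 380, 55.1 and 67.8 in Balb/c-2 and 157, 123 and 129 in CBA, against 3.33, 4.77 and 3.85 in F0 and 39.7, 1.02 and 8.13 in N2.1. Balb/c-2 A thus held most of the Balb/c-2 signal and N2.1 A most of that in N2.1. A copy outside exons, of the long terminal repeat RLTR48B, whose end reaches into the printed promoter of Zfp936, had 19.8, 0 and 1.72 in Balb/c-2 and 9.02, 36.8 and 4.98 in CBA, against 0 in all F0 tumours and 0.946, 0 and 0.903 in N2.1. Nearly all of its Balb/c-2 signal was in Balb/c-2 A, and Balb/c-2 B was at 0. Copies inside the level gene Zfp984 had 1107 reads in F0, 1155 in N2.1, 1162 in Balb/c-2 and 906 in CBA.

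**Figure D4:**
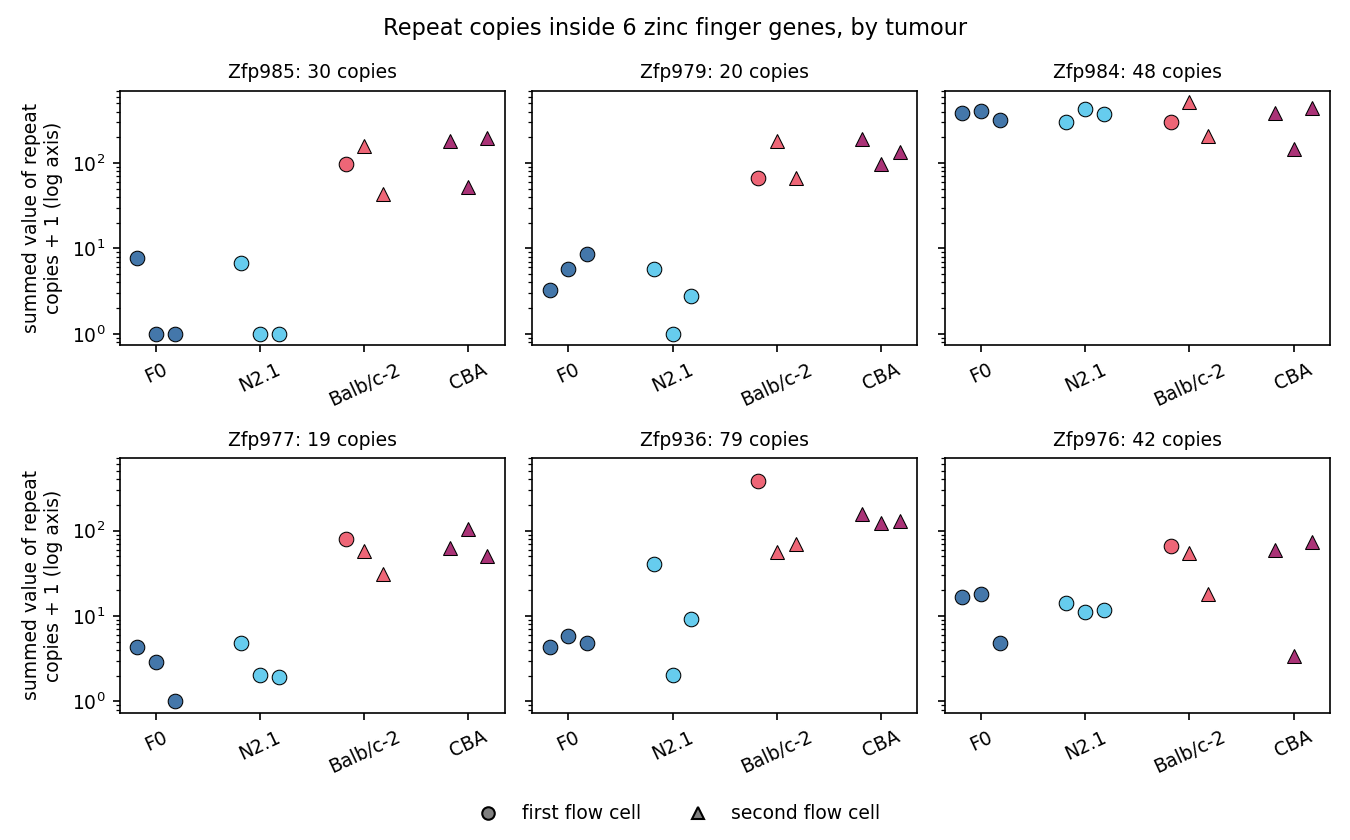
Summed normalised value + 1 (log axis) of all repeat copies inside 6 genes, in each tumour of the 4 passages, with circles for the first flow cell and triangles for the second. The copies inside Zfp985, Zfp979 and Zfp977 are higher in all 6 Balb/c-2 and CBA tumours than in any F0 or N2.1 tumour, and those inside Zfp984 overlap.

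Genes with the pattern most like Zfp985 over the 12 tumours were sought among all tested genes with a name, as a description. Morc1, known for silencing transposable elements in the male germ line, came first with a Pearson r of 0.987 on the log2(value + 1) scale, followed by Zfp977 (0.985), Zfp979 (0.984), the homeobox gene Isl2 (0.970) and the DnaJ cochaperone gene Dnajc22 (0.966). Zfp936 was sixth with 0.966. Morc1 had 7.77, 2.86 and 3.85 in F0 and 1.89, 0 and 0 in N2.1, and 576, 884 and 1058 in Balb/c-2 and 993, 682 and 1040 in CBA. These genes lie on chromosomes 16, 7, 4, 9, 15 and 7, and all share the same 12 libraries and the same gap between earlier and later passages.

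Over all members, the comparison of CBA with F0 called 5 of 53 genes higher and 0 lower (limma, adjusted p under 0.05), where 5.04% of all genes tested were called, 2.36% higher and 2.69% lower. Outside the chromosome 4 array the called genes were Zfp977 and Zfp936, 2 of 45, which both passed the filter only through the later passages. The other 3 of the 5 lie inside the array (Zfp985, Zfp979 and Zfp978) and, like its levels, are a description from which nothing is read. In Balb/c-2 minus N2.1, 5 of 53 were called higher and 0 lower, where 2.32% of all genes were called, 0.943% higher and 1.38% lower: Zfp985, Zfp979, Zfp977, Zfp936 and Zfp961. Outside the array these were Zfp977, Zfp936 and Zfp961, 3 of 45, and Zfp985 and Zfp979 are again description only. The member median was 0.29 there, against -0.04 for all genes tested, and 84.9% of the members had a positive change, against 47.2% of all genes; the comparison shares its N2.1 tumours with N2.1 minus F0. In Balb/c-2 minus F0, the comparison in which Zfp985 had been singled out, 4 genes were called (Zfp985, Zfp979, Zfp977 and Zfp936), where 3.51% of all genes were. Nothing is read from that count. Since 4 tested genes passed the filter only through their high passages, none of these counts stands for the set as a whole. Among the 18 tested neighbours that lie between the members on chromosome 4, limma called 0 in CBA minus F0, with 1 at an unadjusted p under 0.05, 0 called by edgeR and 1 by DESeq2. In Balb/c-2 minus N2.1 and Balb/c-2 minus F0, limma and edgeR also called 0 of these neighbours, with 4 and 3 at an unadjusted limma p under 0.05. DESeq2 called 4 and 2 of them, all higher, where it called 7.32% and 10.9% of all genes.

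Zfp961, on chromosome 8 outside the cluster there, showed a smaller difference of another shape, with N2.1 low. It had 503, 584 and 501 in Balb/c-2, against 273, 292 and 253 in N2.1, and 404, 500 and 419 in F0. No N2.1 tumour overlapped with another passage. The log2 change was 0.95 ± 0.21 for Balb/c-2 minus N2.1 (SE, limma, adjusted p = 0.04) and -0.69 ± 0.21 for N2.1 minus F0 (adjusted p = 0.068). The first call was lost in 14 of 23 alternative settings, with adjusted p up to 0.254, including each of the 3 fits that left out an N2.1 tumour (0.11 to 0.168), and exons of Zfp961 overlap Cyp4f18 on the other strand.

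The comparison of N2.1 with F0 was broad and shallow. The median log2 change of the 53 tested members was -0.42, against -0.015 for all genes tested and -0.23 for the 274 tested genes of the series Zfp1 to Zfp899, and 20.8% of the members had a positive change, against 49.0% of all genes. By single genes, limma called 0 of 53 members, where 7.91% of all genes were called; 8 had an unadjusted p under 0.05, edgeR called 0 and DESeq2 called 4, all lower (Zfp932, Zfp937, Zfp947 and Zfp961). The N2.1 tumours lay wholly below the F0 tumours in 15 members and wholly above in 3, where 17.8% and 20.4% of all genes did so. The N2.1 mean was the lowest of the 4 passages in 36 of the 53 members. The share over all genes tested was not computed, so nothing is read from that count. Over 24 alternative settings the member median stayed between -0.60 and -0.23. Same-letter tumours of N2.1 and F0 deviated together in all 3 pairs (r of 0.181 to 0.478). Of the different-letter pairs, F0 C with N2.1 A (0.234) and F0 A with N2.1 C (0.126) were also positive. The others were negative (-0.36 to -0.227), and a pairing by letter is not established. A fit of these passages alone with the letter as a replicate block was added after the data were seen. It called 10 members, 2 higher (Zfp945 and Zfp954) and 8 lower, where it called 32.8% of all genes. Host cell markers moved with this comparison: the summed level of 6 macrophage genes was 81233 to 88655 in N2.1, against 52892 to 58472 in F0, and that of 6 T cell genes was 4435 to 6453 in N2.1, against 101 to 1590 in F0. Melanocyte genes summed to 1382 to 2985 in N2.1, against 520 to 838 in F0, and keratinocyte genes to 62.1 to 119 in N2.1, against 137 to 207 in F0. The melanocyte sums were mostly Mitf and Kit, with Tyr, Dct and Mlana at or near 0, and the keratinocyte sums were mostly Krt10. C1qa was the largest part of the macrophage sums, with 49644, 36129 and 49161 in N2.1, against 23035, 20130 and 26307 in F0. Cd68 and Cd163 were also higher in all N2.1 tumours. Mrc1 was lower, with 4860, 7372 and 6387 in N2.1, against 8248, 7558 and 11721 in F0, and Csf1r and Adgre1 overlapped. The part of all these markers in the result was not tested.

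By position, members in no cluster had the lowest median. It was -0.58 on the log2 scale over 18 tested genes, with N2.1 wholly below F0 in 10, while the medians were -0.46 on chromosome 2, -0.46 on chromosome 7, -0.26 on chromosome 17, -0.24 on chromosome 4 and -0.21 on chromosome 8; differences between these medians were not tested. Zfp937 had 61.5, 83.5 and 50.6 in N2.1, against 102, 219 and 132 in F0, a log2 change of -1.16 ± 0.39 (SE, limma, adjusted p = 0.0909). Zfp932, which in mouse embryonic stem cells is known to repress endogenous retroviruses, had 224, 197 and 186 in N2.1, against 334, 315 and 372 in F0, a log2 change of -0.75 ± 0.25 (adjusted p = 0.0926). Zfp947 had 78.5, 88.6 and 52.4 in N2.1, against 105, 176 and 154 in F0, with -0.98 ± 0.35 (adjusted p = 0.116). In all 3 genes the groups do not overlap. None was called by the main limma fit, or by limma with the replicate block over all tumours. All 3 were called by the fit of these passages alone with that block, which called 32.8% of all genes. DESeq2 without a block also called all 3. Quantile normalisation called Zfp937, and the fit of these passages alone without a block called Zfp932.

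**Figure D5:**
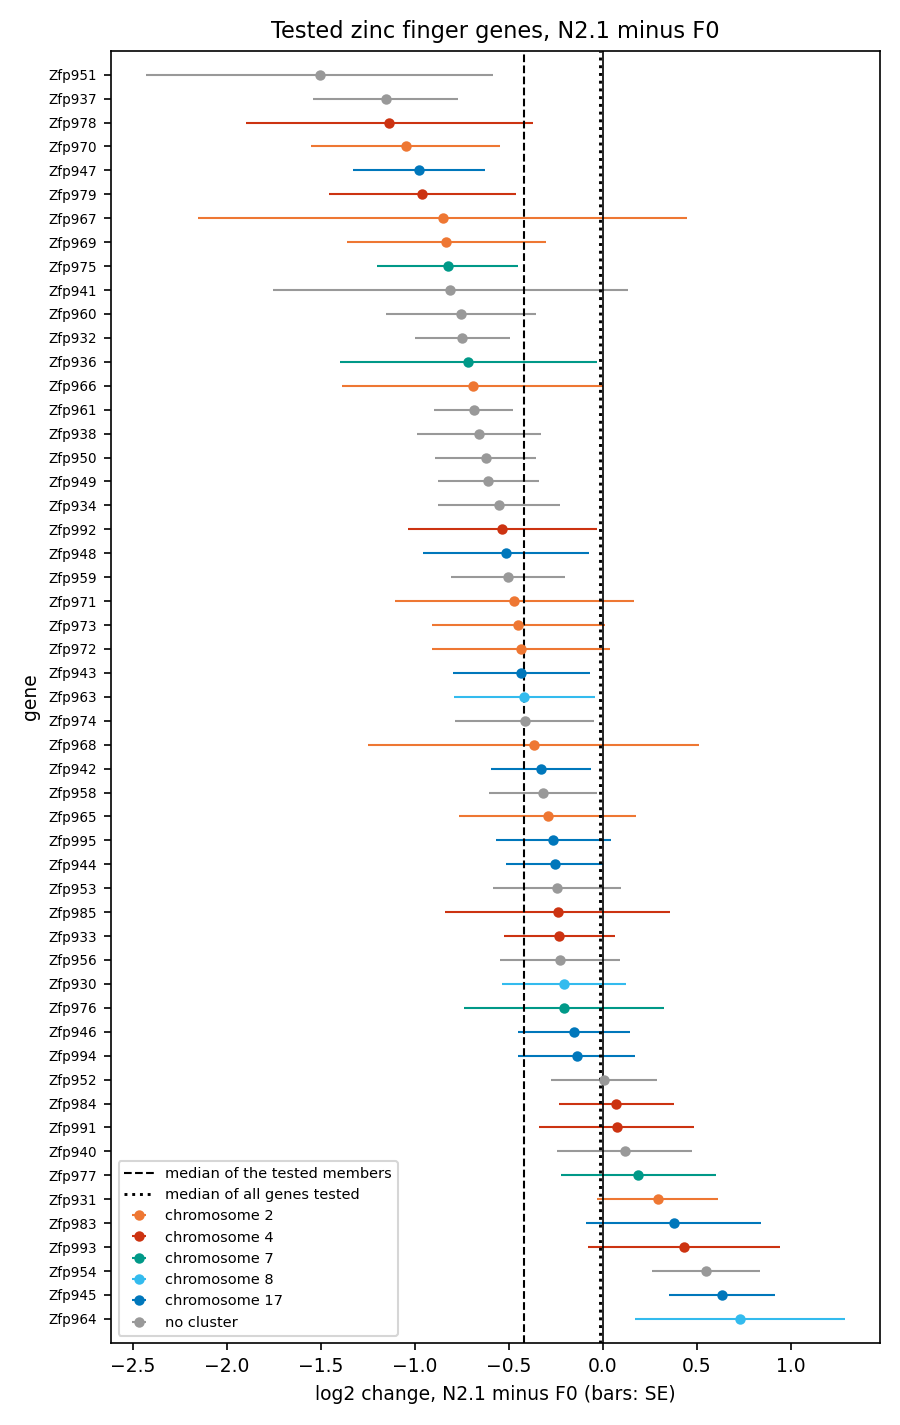
Log2 change of N2.1 minus F0 with its SE for the 53 tested members, sorted and coloured by cluster, with the member median (-0.42) dashed and the median of all genes tested (-0.015) dotted. Most points lie left of 0, with bars of a size that leaves none past the threshold.

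Going the other way were Zfp954, Zfp945 and Zfp983, the 3 members wholly higher in N2.1 than in F0. Zfp945, the most abundant member by reads with a mean of 806, had 644, 950 and 812 in N2.1, against 526, 537 and 470 in F0. In CBA it had 1145, 798 and 985, a log2 change from F0 of 0.92 ± 0.28 with an adjusted p of 0.0923 (SE, limma). Zfp954 had 541, 431 and 471 in N2.1, against 359, 302 and 323 in F0, with a log2 change of 0.55 ± 0.29 and an adjusted p of 0.293. By level per kb of exon over all tumours, Zfp984 (203), Zfp954 (200) and Zfp991 (168) came ahead of Zfp945 (79.3), whose annotated exons are long.

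The summed level of the members of the chromosome 2 array overlapped between all passages. Its 10 members summed to 833, 1305 and 677 in F0, to 592, 939 and 633 in N2.1, to 729, 1140 and 616 in Balb/c-2 and to 1035, 594 and 1179 in CBA. None of the 10 was called in any comparison: in CBA minus F0 Zfp972 came closest, with 65.9, 66.4 and 53.5 in CBA, against 30.0, 27.7 and 20.2 in F0, and an adjusted p of 0.181 (limma). Of the 31 tested genes between these members, 4 were called higher in CBA minus F0, led by Gm14322. It had 200 ± 38.8 in CBA and 33.7 ± 9.26 in F0 (SD, n = 3 each, limma, adjusted p = 0.00887, and 0.33 with flow cell as a covariate). In Balb/c-2 minus N2.1, 5 were called higher, among them Gm14322 with 138 ± 38.9 in Balb/c-2 and 11.8 ± 7.37 in N2.1. All these genes carry Gm names or the name 2210418O10Rik and are not members. On chromosome 17, Zfp944 and Zfp942 varied least of all tested members, with a coefficient of variation of 15.3% and 17.9% over the 12 tumours.

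For CBA minus Balb/c-2, limma called 0 of 53 members, where 1.04% of all genes were called, with 2 members at an unadjusted p under 0.05 (Zfp978 and Zfp959), 0 called by edgeR and 0 by DESeq2. The median log2 change was -0.001 for the members and -0.026 for all genes tested. Zfp959, in no cluster, had 183, 98.4 and 168 in CBA, against 272, 220 and 316 in Balb/c-2, a log2 change of -0.88 ± 0.30 with an adjusted p of 0.23 (SE, limma).

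The partners through which KRAB zinc finger proteins act were examined together with 4 KRAB zinc finger genes outside the numbered set (Zfp57, Zfp568, Zfp809 and Zfp819), as a list of 28 genes, all in the table and 27 tested. In N2.1 minus F0, 4 fell and 0 rose (7.91% of all genes were called, 2.9% lower). Hdac2, a histone deacetylase of the NuRD complex, averaged 2518 ± 155 in N2.1 and 6047 ± 447 in F0 (SD, n = 3 each), a log2 change of -1.26 ± 0.19 with an adjusted p of 0.00346 (SE, limma). Zfp57, a KRAB zinc finger protein that keeps imprints methylated, averaged 52.4 ± 12.1 in N2.1 and 161 ± 13.9 in F0, with -1.63 ± 0.41 and an adjusted p of 0.032. Rbbp7, a histone-binding subunit of NuRD, and Uhrf1, which guides maintenance DNA methylation, also fell, by 0.70 and 0.90 on the log2 scale. Hdac2 kept its call under all 24 alternative settings, while leaving out any F0 or N2.1 tumour left 1 or 2 of the 4 calls, and a count of 1 remained without a filter on low values. Trim28 itself had 15411, 14602 and 15297 in N2.1, against 20254, 23750 and 22853 in F0, without overlap but with an adjusted p of 0.0745. In Balb/c-2 minus F0, CBA minus F0 and Balb/c-2 minus N2.1 limma and edgeR called 0 of the 27, with 4, 2 and 4 at an unadjusted p under 0.05, and DESeq2 called 1, 1 and 2. In the later passages Trim28 averaged 15796 ± 2000 in Balb/c-2 and 17761 ± 749 in CBA.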

How the data were processed

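The authors deposited normalised signal at 3 decimals for each gene and each repeat copy of the 12 tumours. The submitters' processing notes name the tools HISAT2 2.0.5, StringTie 1.3.3b and featureCounts 1.5.0-p3, and the build mm10; how the signal was normalised is not given in the sources used here. Dividing the deposited signal by 1 step per library gave whole reads for 100% of values (tolerance 0.1 reads). Symbols and coordinates came from GENCODE M21 (34364 of 34436 gene rows matched) and promoters from RefSeq (52 members). Protein sequences were not used here.

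The test was limma 3.58.1 (trend, robust, R 4.3.3) on log2(value + 1) in the 17491 genes that reached 10 in 3 tumours, with a mean per passage over all tumours. P-values are two-sided, Benjamini-Hochberg adjusted over all genes and called under 0.05. Alternatives were edgeR 4.0.16 and DESeq2 1.42.0 on recovered reads, other pseudocounts, filters and scalings, flow cell terms, a replicate block and leaving out each tumour. Same-letter tumours were checked for pairing by the correlation of their deviations from passage means, which exceeded 0.1 in all 3 pairs for N2.1 and F0 alone. Over all passages it exceeded 0.1 in 7 of 18 same-letter and 15 of 36 different-letter pairs. The fits were tested on simulated data. The genes named are called members, the chromosome 4 array, members with at most 3 reads in a passage and at least 100 in another, the 5 most abundant, up to 3 called genes of the silencing list, those beside the filter and the 5 most like Zfp985; other genes described were chosen after their values were seen. Members and lists were chosen with earlier results of these data known. Exact 95% intervals cover counting error alone.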

Additional observations from a re-analysis of the deposited data

How the results depend on the processing

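No called member, called gene of the silencing list or Gm14322 changed direction under the alternatives run. Zfp977 and Zfp936 kept their calls in CBA minus F0 and Balb/c-2 minus N2.1 under the 22 alternatives that tested them. Both pass the filter only through the later passages, and within one flow cell they fell under it and were not tested. Members called in N2.1 minus F0, 0 in the report, numbered 2 with quantile normalisation, 1 within one flow cell, 2 with only the 2 groups in the fit and 4 with DESeq2, all lower, and 10 with only these groups and the replicate block; leaving out a tumour gave 0 to 1. In CBA minus F0, 5 in the report, they numbered 3 with flow cell as a covariate and 8 with DESeq2, and 4 to 6 leaving out a tumour. In Balb/c-2 minus N2.1, 5 in the report, they numbered 1 within one flow cell and 9 with DESeq2, and 4 to 5 leaving out a tumour. In Balb/c-2 minus F0, 4 in the report, they numbered 0 within one flow cell and 4 to 5 leaving out a tumour; within that flow cell Balb/c-2 has 1 tumour, assumed to vary like the others, and Zfp985, Zfp977 and Zfp936 fall under the filter. CBA minus Balb/c-2 gave 0 leaving out any tumour. CBA and F0 share no flow cell, so no such fit was run, and the flow cell covariate rests on Balb/c-2 A against Balb/c-2 B and C.

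Over all 12 tumours, the replicate block (tumour letter) gave 0 in N2.1 minus F0 and 4 in CBA minus F0. All 3 same-letter pairs of N2.1 and F0 correlated over 0.1, but so did F0 C with N2.1 A and F0 A with N2.1 C. In the other comparisons 0 to 2 of 3 same-letter pairs did. The letters are therefore not shown to pair the tumours in any comparison. The member medians ran over the alternatives from -0.26 to 0.20 in Balb/c-2 minus F0 (-0.25 with the flow cell covariate and -0.26 within one flow cell), from -0.35 to 0.19 in CBA minus F0 and from -0.09 to 0.26 in CBA minus Balb/c-2, so these have no direction; in Balb/c-2 minus N2.1 the range was 0.06 to 0.47. Quantile normalisation moved the median of all genes in N2.1 minus F0 to -0.115, against -0.015 as deposited. Calls of the silencing list in N2.1 minus F0, 4 in the report, numbered 1 without a filter, 11 with only these groups and the replicate block, and 1 to 6 leaving out a tumour. The 9 members under the filter were not tested, so differences at such counts were not examined.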
